A study of Mus musculus with 2 samples.

Results

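Genes for the nuclear subunits of oxidative phosphorylation (OXPHOS) were compared between cultures of mammary basal cells with and without tumour necrosis factor alpha (TNF-α). The genes were chosen by name, as every gene of the count table whose symbol begins with Nduf followed by a, b, c, s or v and a number, with Uqcr, with Cox and a number from 4 to 8, or with Atp5, together with Sdha, Sdhb, Sdhc and Sdhd. After 6 pseudogene names ending in -ps were dropped, 84 of the 49492 genes of the table remained, of which 35 belong to complex I, 4 to complex II, 8 to complex III, 20 to complex IV and 15 to complex V. The remaining names, Atp5s and Atp5sl, carry the prefix but do not encode subunits of the enzyme.

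The cells were basal epithelial cells of wild-type (WT) adult female mice, which according to the methods of the study were 8 to 10 weeks old, sorted as lineage-negative CD24+ CD29hi cells from the mammary gland. Both cultures grew for 10 days in 3D gel culture in a medium with epidermal growth factor at 50 ng/mL and insulin-transferrin-selenium at a dilution of 1:100, and the treated culture also received mouse TNF-α at 10 ng/mL. This cytokine acts in inflammation, and the comparison asked which genes it raised or lowered in colonies grown from basal cells. Each condition was represented by 1 RNA-seq library, so the difference had no replicate check and no p-value could be given. The labels do not say how many mice or colonies were pooled in a library.

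Oxidative phosphorylation is carried out in the inner mitochondrial membrane. Complexes I and II pass electrons from NADH and succinate to coenzyme Q, complex III passes them on to cytochrome c, complex IV passes them to oxygen, and complex V uses the resulting proton gradient to make ATP. Most subunits are encoded in the nucleus and the rest by mitochondrial DNA, and several subunits of complexes IV and V exist as alternative isoforms from separate genes. In epithelial cells this system supplies ATP beside glycolysis.

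The libraries held 44462275 counts (control) and 53487087 counts (TNF-α). A gene was compared when its counts summed to at least 10, which left 82 of the 84 OXPHOS genes and 20771 genes in all. Cox8c, a testis isoform, and Cox7b2 had no count in either library, which allows a level of up to 0.0675 CPM in the control and up to 0.0561 CPM in the TNF-α library, CPM being counts per 1e6 counts of the library. Of the 82 genes, 67 had at least 1000 counts and are called well counted here. Differences are given as log2 ratios, the TNF-α over the control level, after edgeR's TMM scaling with 2 counts added to each library in proportion to its size. The interval in brackets is the 95% Clopper-Pearson interval of the gene's counts turned into a log2 ratio, and it covers counting error only. In both libraries more genes had 2 counts than 1 count (2172 against 618 in the control library, 2350 against 645 in the TNF-α library), so that counts may not be independent molecules and the intervals may be too narrow.

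The labelled cell type was checked against its markers. The libraries came from cultures grown for 10 days, not from freshly sorted cells. By flow cytometry, the paper found control colonies grown from sorted basal cells to be mostly luminal. It also reported a higher share of basal cells with TNF-α. Whether these 2 cultures had that composition was not tested. All 7 basal markers were present, with a summed level of 11596 CPM in the control and 10572 CPM in the TNF-α library, led by the basal keratins Krt14 and Krt5. In the TNF-α library 2 of the 7 lay above the control, and the contractile and hormone receptor genes Oxtr, Cnn1 and Myh11 were lowest, at log2 ratios of -1.19, -0.74 and -0.52. The 9 luminal markers were also present, at 3583 and 2555 CPM, and all 9 were below the control in the TNF-α library. Leukocyte markers summed to 16.8 and 16.5 CPM, fibroblast markers to 499 and 486 CPM, endothelial markers to 7.07 and 6.67 CPM, and adipocyte markers to 4.89 and 2.81 CPM, with the adipocyte gene Plin1 at 0 in both libraries. In such bulk samples, fewer cells of a type and less RNA per cell cannot be told apart, and the part of these basal and luminal differences in the OXPHOS values was not tested.

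The nuclear OXPHOS genes as a whole lay close to their control level. They took 292748 counts in the control library, or 0.658% (95% exact binomial interval 0.656 to 0.661), and 355713 counts in the TNF-α library, or 0.665% (0.663 to 0.667). After scaling, their summed level was 6570 CPM in the control and 6668 CPM in the TNF-α library, a log2 ratio of 0.02. The median of the 82 log2 ratios was 0.04, against 0.00 for all genes compared, and 49 of the 82 lay above 0. Their spread was narrower than that of all genes compared, with an interquartile range of 0.269 against 0.607. Related lists described below were as narrow, with 0.217 for assembly factors, 0.264 for coenzyme Q synthesis and 0.152 for the citric acid cycle. Carriers and subunits outside the name rule had 0.210, and regulators of mitochondrial gene expression 0.255. Wider were the mitochondrial-DNA-encoded subunits at 0.394 and mitochondrial carriers and channels at 0.842. Among well counted genes the range was 0.226 for the 67 OXPHOS genes and 0.390 for the 9345 genes in all.

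**Figure D1:**
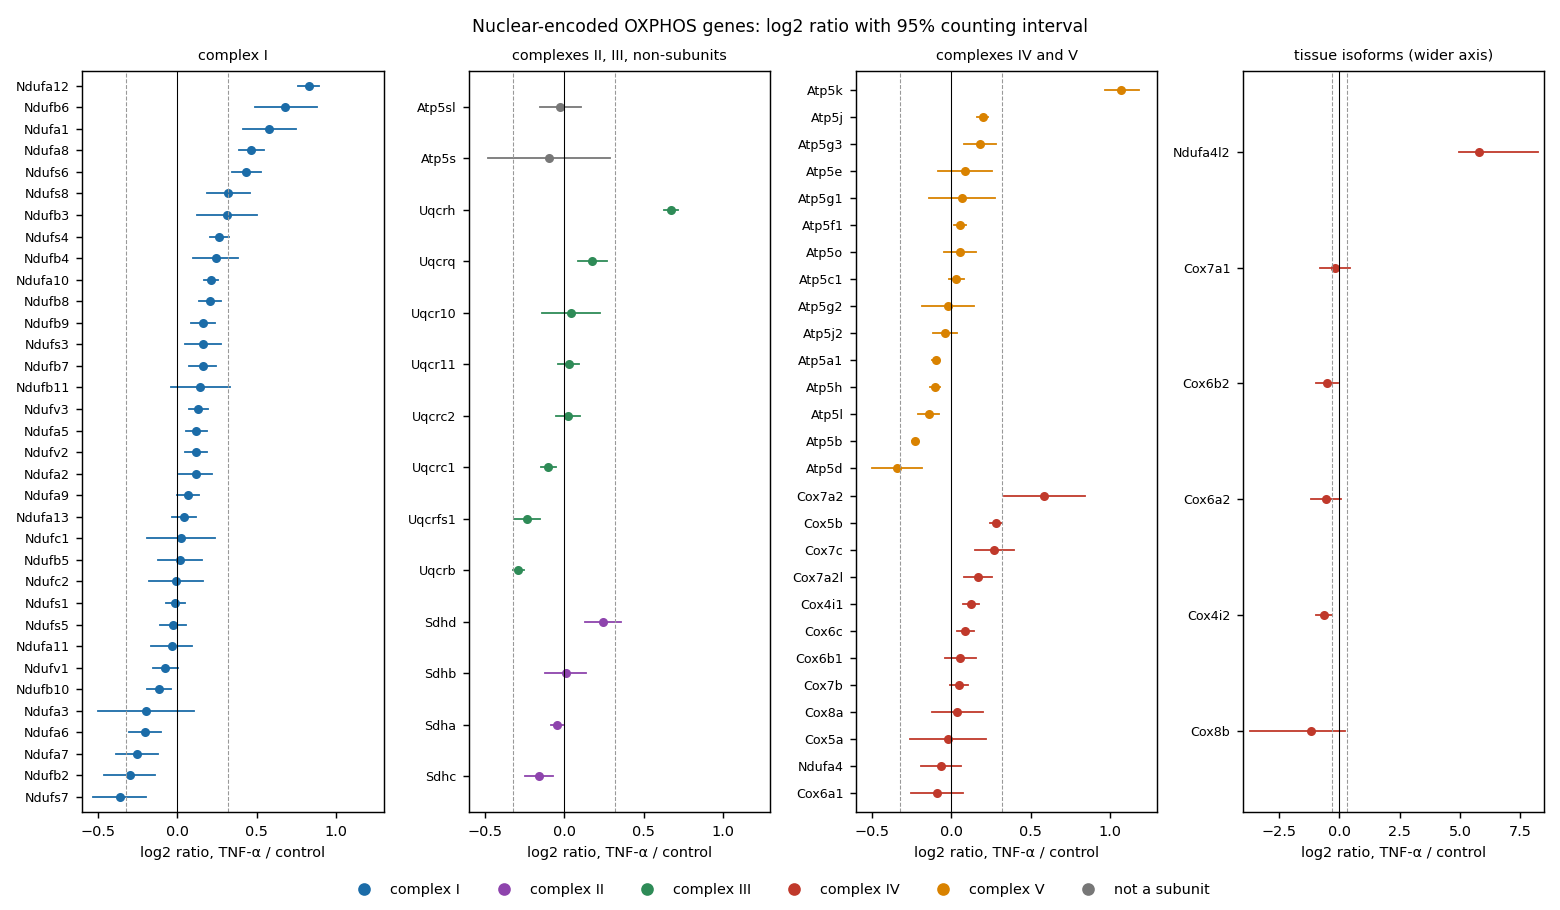
Log2 ratio (TNF-α over control) for 81 of the 82 nuclear OXPHOS genes compared (points), with the 95% counting interval (bars), by complex; dashed lines mark a ratio of 5 to 4. Most genes sit within the dashed lines, Atp5k, Ndufa12, Ndufb6 and Uqcrh sit to the right of them, and the panel of tissue isoforms has a wider axis because Ndufa4l2 lies at 5.81.

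A gene was counted as higher or lower when its scaled levels differed by more than a ratio of 5 to 4, which is 0.32 on the log2 scale. Past this 5-to-4 limit, 9 of the 82 genes (11.0%) were higher in the TNF-α library and 6 (7.32%) were lower, while 24.5% of all genes compared were higher and 23.4% were lower. The remaining 67 OXPHOS genes (81.7%) stayed within the limit, against 52.1% of all genes compared. Past 2-fold, Ndufa4l2 and Atp5k were higher and Cox8b was lower, where the background was 8.56% of all genes higher and 6.62% lower. Restricting the comparison to well counted genes left 6 of 67 higher and 2 of 67 lower past the 5-to-4 limit, with a background of 15% higher and 14.6% lower. Atp5k was the 1 well counted OXPHOS gene past 2-fold higher and none was past 2-fold lower, against a background of 2.65% and 2.02%. Within the limit were 59 of the 67 well counted OXPHOS genes (88.1%) and 70.4% of all well counted genes.

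**Figure D2:**
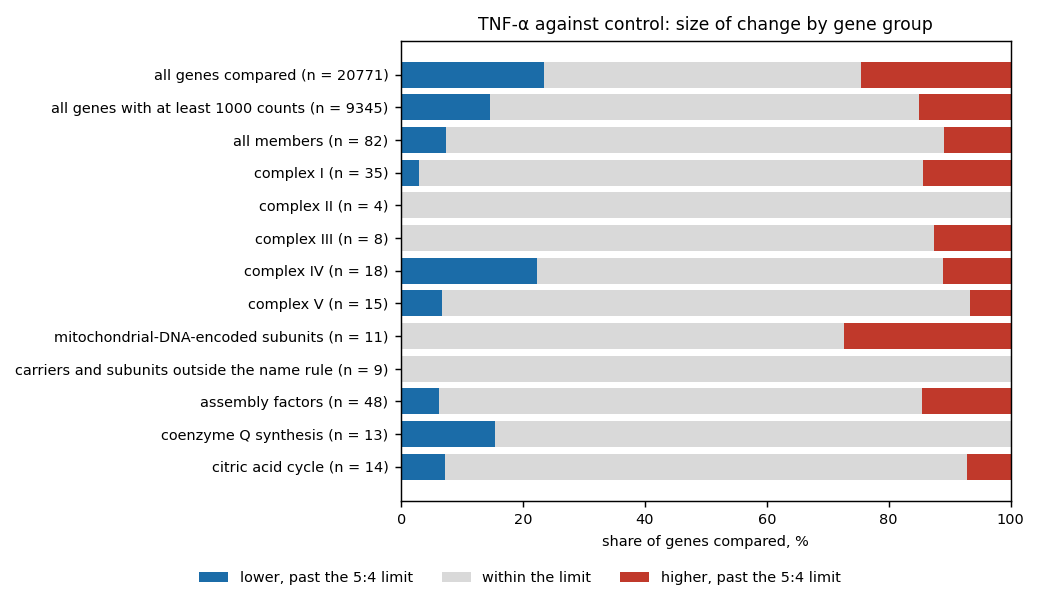
Share of genes lower past a ratio of 5 to 4, within that limit, and higher past it in the TNF-α library, for all genes compared, well counted genes, the OXPHOS genes and complexes, and the related gene lists. All 4 complex II genes and all 9 genes listed as carriers and subunits outside the name rule fall in the middle class. Complex IV has the largest lower share of the 5 complexes, from its tissue isoforms.

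The well counted genes that stood furthest above the control were Atp5k, Ndufa12 and Uqcrh, and with fewer counts Ndufb6. Their promoters and those of the other OXPHOS genes were examined for letters known from nuclear genes of the mitochondrion. The promoters of Atp5k, Uqcrh and Ndufb6 are shown because these are the genes furthest above the control that held a match. Each is the RefSeq sequence (GRCm38.p6) from 250 bases before to 50 bases after the annotated start, 5′ to 3′ on the minus strand, with matches to the NRF1 and ETS motifs in capitals. Atp5k lies at chr5:108434350-108434649, Uqcrh at chr4:116075021-116075320 and Ndufb6 at chr4:40279372-40279671.
Atp5k: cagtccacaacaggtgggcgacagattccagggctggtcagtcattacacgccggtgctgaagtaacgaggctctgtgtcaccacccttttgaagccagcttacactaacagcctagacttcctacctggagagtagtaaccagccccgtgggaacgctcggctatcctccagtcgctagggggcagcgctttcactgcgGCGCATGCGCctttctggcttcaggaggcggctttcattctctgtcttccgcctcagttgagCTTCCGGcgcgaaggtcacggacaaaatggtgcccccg
Uqcrh: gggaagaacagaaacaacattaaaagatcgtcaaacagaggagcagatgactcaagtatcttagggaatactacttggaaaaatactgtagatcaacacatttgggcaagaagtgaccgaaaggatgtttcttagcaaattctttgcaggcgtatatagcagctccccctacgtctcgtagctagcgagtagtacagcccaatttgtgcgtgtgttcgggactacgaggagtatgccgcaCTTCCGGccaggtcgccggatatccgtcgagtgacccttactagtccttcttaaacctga
Ndufb6: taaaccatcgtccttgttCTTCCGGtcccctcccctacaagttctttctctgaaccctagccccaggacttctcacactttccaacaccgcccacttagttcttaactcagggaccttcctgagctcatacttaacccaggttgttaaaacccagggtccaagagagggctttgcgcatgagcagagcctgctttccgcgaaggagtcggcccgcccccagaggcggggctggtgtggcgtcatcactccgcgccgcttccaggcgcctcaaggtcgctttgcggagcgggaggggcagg
The Atp5k window held 2 overlapping matches to the NRF1 letters, on opposite strands, and 1 match to the ETS letters. The Uqcrh and Ndufb6 windows each held 1 ETS match, close to the start in Uqcrh and far upstream in Ndufb6. The Ndufa12 window held none of the 5 motifs searched.

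Motifs were searched on both strands in the 75 windows of the 69 OXPHOS genes that the promoter table holds, and in all 32851 windows of the table. The NRF1 letters GCGCATGC stood in 13.3% of the OXPHOS windows and in 2.71% of all windows. The ETS letters CCGGAAG, the core bound by GABP, stood in 21.3% against 8.86%, and the YY1 letters AAGATGGC in 16% against 2.75%. NRF1, GABP and YY1 are transcription factors known for nuclear genes of the respiratory chain. The estrogen-related receptor letters TCAAGGTCA stood in 2.67% against 0.423%, and the hypoxia response core ACGTG in 28% against 19.6%. No motif's letters contain those of another, although matches of different motifs, such as ETS and YY1 or NRF1 and YY1, can overlap at their ends. The log2 ratios of genes with and without a match are given as a description. The median was -0.03 for the 10 genes with the NRF1 letters and 0.05 for the 58 without, and 0.12 for the 16 genes with the ETS letters and 0.03 for the 52 without. For YY1 it was 0.06 in 11 genes and 0.04 in 57, for the estrogen-related receptor letters 0.21 in 2 genes and 0.04 in 66, and for the hypoxia response core -0.05 in 19 genes and 0.07 in 49. Whether any of these medians differ was not tested. Ndufa4l2, Cox4i2 and Cox4i1 had no entry in the promoter table.

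Complex I, the NADH dehydrogenase, had 29 of its 35 genes within the 5-to-4 limit. The median log2 ratio of its 35 genes was 0.12, 24 of them lay above 0, and their summed level was 1601 CPM in the control and 1775 CPM in the TNF-α library. Past the 5-to-4 limit, 5 genes were higher and 1 was lower, both smaller shares than the 24.5% and 23.4% of all genes compared. The 19 genes of the membrane arm, which pumps protons, and the 16 genes of the peripheral arm, which takes electrons from NADH, had similar medians of 0.15 and 0.12. Ndufv1 and Ndufs1, core subunits at the entry of electrons from NADH, were at or near the control level. Ndufv1, which binds the flavin, had 2400 counts in the control and 2728 in the TNF-α library, a log2 ratio of -0.07 (-0.15 to 0.00). Ndufs1, the largest subunit, had 4072 and 4829 counts, a log2 ratio of -0.01 (-0.07 to 0.05).

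The 5 complex I genes above the control were all accessory subunits, which surround the catalytic core and are needed for its assembly or stability. Ndufa12 (chr10:94198955-94221443) had 2633 counts in the control and 5598 in the TNF-α library, a log2 ratio of 0.83 (0.76 to 0.90). Ndufb6 (chr4:40270591-40279421) had 328 and 630 counts, a log2 ratio of 0.68 (0.49 to 0.88). Both intervals lay wholly past the limit, as did those of Ndufa1, Ndufa8 and Ndufs6. Ndufa1 had 470 and 842 counts and a log2 ratio of 0.58 (0.42 to 0.75), Ndufa8 had 2214 and 3666 counts and 0.47 (0.39 to 0.54), and Ndufs6 had 1597 and 2587 counts and 0.44 (0.35 to 0.53). After a correction for GC content and exon length Ndufs6 was at 0.25, within the limit. Ndufs8, an iron-sulfur subunit, lay just inside the limit with 724 and 1083 counts and a log2 ratio of 0.32 (0.18 to 0.46).

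Ndufs7, which carries the iron-sulfur cluster nearest to coenzyme Q, was the 1 complex I gene lower past the limit. It had 622 counts in the control and 578 in the TNF-α library, a log2 ratio of -0.36 (-0.53 to -0.20), so its interval reached back inside the limit. After the correction for GC content and exon length it lay within the limit, at -0.28, while Ndufa6 at -0.35 and Ndufa7 at -0.33 lay past it. Ndufb2 followed with 655 and 636 counts and a log2 ratio of -0.30 (-0.46 to -0.14). The catalytic core of complex I therefore held values on both sides of the control, from Ndufs7 to Ndufs8.

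Complex II, the succinate dehydrogenase that also serves the citric acid cycle, had no gene past the 5-to-4 limit. Its flavoprotein Sdha had 11710 counts in the control and 13581 in the TNF-α library, a log2 ratio of -0.05 (-0.08 to -0.01). Its iron-sulfur subunit Sdhb had 885 and 1066 counts, a log2 ratio of 0.01 (-0.12 to 0.14). The membrane anchors lay on opposite sides, Sdhc at -0.16 (-0.25 to -0.07, from 2094 and 2244 counts) and Sdhd at 0.24 (0.13 to 0.36, from 1065 and 1510 counts).

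Complex III, the cytochrome bc1 complex, had a median of 0.03 over 8 genes, with its extremes among the accessory subunits. Uqcrh (chr4:116066965-116075071), the acidic hinge protein that helps cytochrome c to dock, had 6120 counts in the control and 11666 in the TNF-α library, a log2 ratio of 0.67 (0.63 to 0.72). Uqcrb, which borders the coenzyme Q site, had 12485 and 12227 counts, a log2 ratio of -0.29 (-0.33 to -0.25). These subunits of the same enzyme thus differed from each other by more than counting error. The exons of Uqcrb share 50 bases, or 5.71% of their length, with the opposite-strand gene Gm10767, which had 4356 and 3995 counts. The part of Gm10767 reads in the Uqcrb counts was not tested. Uqcrfs1, the Rieske iron-sulfur protein, had 2346 and 2388 counts and a log2 ratio of -0.23 (-0.32 to -0.15). After the correction for GC content and exon length both lay past the limit, Uqcrb at -0.47 and Uqcrfs1 at -0.34. The core proteins were nearer to the control, Uqcrc1 at -0.10 (6853 and 7655 counts) and Uqcrc2 at 0.02 (2412 and 2934 counts).

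**Figure D3:**
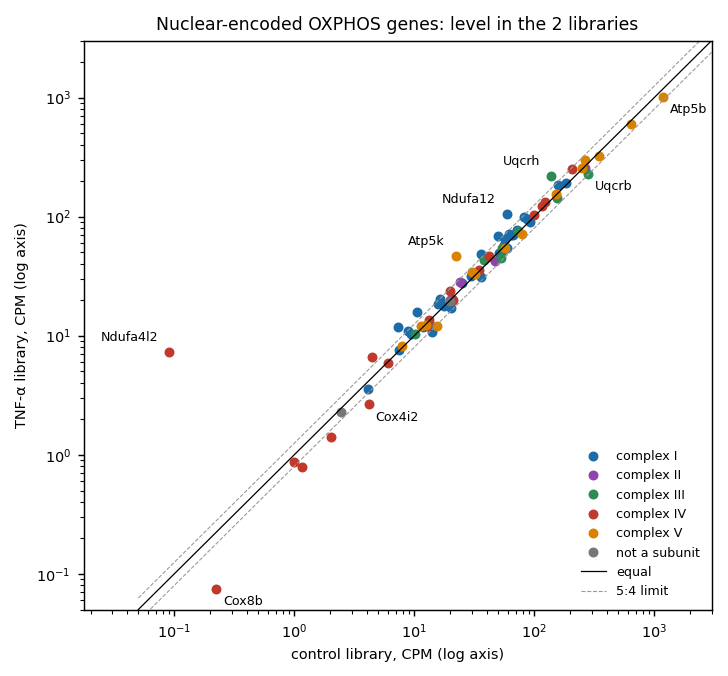
Level of each nuclear OXPHOS gene in the control library (x axis) and in the TNF-α library (y axis), both in scaled CPM on log axes and coloured by complex; the solid line marks equality and the dashed lines a ratio of 5 to 4. The genes follow the line over the whole range of levels, with Ndufa4l2, Atp5k, Ndufa12 and Uqcrh above it and Cox8b and Cox4i2 below it.

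In complex IV, the cytochrome c oxidase, the 11 subunits in general use and the tissue isoforms differed. The former had a median of 0.06, with 8 of 11 above 0 and 1 gene past the 5-to-4 limit. The lean above 0 depended on processing. After the correction for GC content and exon length Cox8a, Cox7b and Cox6b1 lay below 0, at -0.02, -0.10 and -0.11, and none of the 11 crossed upward. Cox4i1, the common form of the regulatory subunit 4, had 5447 counts in the control and 7121 in the TNF-α library, a log2 ratio of 0.13 (0.08 to 0.18). Cox5b, the zinc-binding subunit, had 9146 and 13306 counts and a log2 ratio of 0.28 (0.24 to 0.32), and Cox5a had 268 and 316 counts and -0.02 (-0.26 to 0.22). Cox7a2, the common form of subunit 7a, was the gene past the 5-to-4 limit, with 198 and 356 counts and a log2 ratio of 0.58 (0.33 to 0.84). The remaining common forms stood close to the control, Cox6a1 at -0.09 (572 and 643 counts), Cox6b1 at 0.06 (1538 and 1914 counts), Cox7b at 0.05 (4457 and 5526 counts) and Cox8a at 0.04 (590 and 726 counts). Cox7a2l, which joins complexes III and IV in supercomplexes, was at 0.17 (0.08 to 0.26).

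The gene furthest above the control was Ndufa4l2 (chr10:127514939-127517152), a paralog of the complex IV subunit Ndufa4 that is known to be induced in hypoxia. It had 4 counts in the control and 388 in the TNF-α library. The log2 ratio was 5.81 with the added counts, and 388 against 4 counts after scaling is an 81.0-fold difference (interval 31.4 to 299). Ndufa4 itself had 936 and 1072 counts, a log2 ratio of -0.06 (-0.19 to 0.06). Per exon length, Ndufa4l2 made up 0.611% of the summed level of the pair without TNF-α and 34.2% with it. The exons of Ndufa4l2 share 30 bases, or 3.13% of their length, with the opposite-strand gene Shmt2, which had 2996 and 4394 counts. Whether the counting used strand was not stated, and the part of Shmt2 reads in these counts was not tested.

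The other tissue isoforms of complex IV had few counts and lay below the control. Cox4i2, the oxygen-responsive form known from lung, had 185 counts in the control and 141 in the TNF-α library, a log2 ratio of -0.64 (-0.98 to -0.33), and its share of the Cox4i1 and Cox4i2 level per length was 6.26% and 3.75%. Cox6b2, a testis form, had 90 and 75 counts, a log2 ratio of -0.51 (-0.98 to -0.06). Of these lower isoforms, Cox4i2 had the interval furthest from 0, wholly past the limit. The heart and muscle forms were Cox6a2 with 52 and 42 counts at -0.54 (-1.19 to 0.05), Cox7a1 with 44 and 46 counts at -0.19 (-0.82 to 0.43), and Cox8b with 10 and 4 counts at -1.20 (-3.71 to 0.21). The intervals of these 3 genes included 0, so a difference was not detectable at this depth. Skeletal muscle markers were present at a summed 37.5 CPM in the control and 30.1 CPM in the TNF-α library, with 2 of 5 above the control and none at 0, and their part in the muscle isoforms was not tested.

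**Figure D4:**
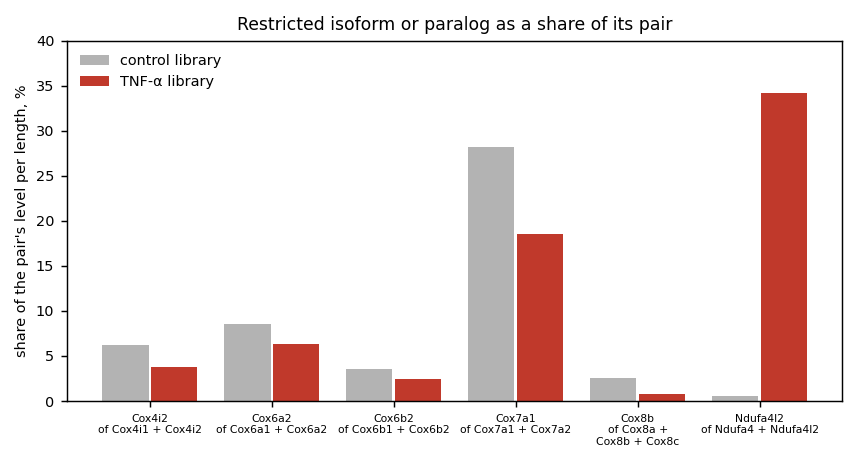
Share of a restricted isoform or paralog in the level per exon length of its pair or family, in percent, for the control library (grey) and the TNF-α library (red), 1 library each, so without error bars. The share of Ndufa4l2 goes from 0.611% to 34.2%, while the shares of Cox4i2, Cox6a2, Cox6b2, Cox7a1 and Cox8b are lower in the TNF-α library.

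Complex V, the ATP synthase, took more counts than any of the other complexes, with a summed level of 3089 CPM in the control and 2920 CPM in the TNF-α library. The sum was slightly lower in the TNF-α library (log2 ratio -0.08), whereas the median of the 15 genes was slightly above 0 (0.03). The 5 genes of the catalytic head and its stalk took 88892 of the 137618 control counts of the complex, with a summed level of 1995 and 1780 CPM. Atp5b, the catalytic beta subunit, had 52539 counts in the control and 53655 in the TNF-α library, a log2 ratio of -0.23 (-0.25 to -0.21). Atp5a1, the alpha subunit, had 28431 and 31801 counts, a log2 ratio of -0.10 (-0.12 to -0.08). Atp5d, the delta subunit of the central stalk, had 685 and 646 counts and a log2 ratio of -0.34 (-0.50 to -0.19), past the 5-to-4 limit. After the correction for GC content and exon length it was at -0.26, within the limit. The exons of Atp5d share 68 bases, or 3.53% of their length, with the opposite-strand gene Cbarp, which had 913 and 649 counts. The part of Cbarp reads in the Atp5d counts was not tested.

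Atp5k (chr5:108433244-108434448), the e subunit of the membrane part that helps the enzyme form dimers, had the largest difference among the well counted OXPHOS genes. It had 984 counts in the control and 2481 in the TNF-α library, a 2.11-fold difference and a log2 ratio of 1.07 (0.97 to 1.18). After the correction for GC content and exon length its log2 ratio was 0.966, below 2-fold. Its neighbours in the membrane part were near or below the control, Atp5j2 at -0.04 (-0.12 to 0.04) and Atp5l at -0.14 (-0.21 to -0.08). The 4 genes of the peripheral stalk had a median of 0.06, from Atp5h at -0.10 to Atp5j at 0.20. The c-ring is encoded by 3 genes for the same mature protein, and their log2 ratios were 0.07 for Atp5g1 (351 and 440 counts), -0.02 for Atp5g2 (556 and 656 counts) and 0.18 for Atp5g3 (1342 and 1820 counts). Atp5g3 gave 60.4% of the c-ring level per length in the control and 63.4% in the TNF-α library. Atp5s and Atp5sl, which are no subunits, were at -0.10 and -0.02.

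Within a complex, the levels of the transcripts were far from equal although the subunits are assembled in fixed numbers. Levels between genes were compared per exon length, in TPM (reads per exon length, scaled to a fixed total). In the control library the most abundant complex I transcript was Ndufb9 at 249 TPM and the least abundant Ndufb2 at 7.37 TPM, with a median of 60.3 TPM over the 35 genes. In complex II the range ran from Sdhb at 25.0 TPM to Sdha at 191 TPM, and in complex III from Uqcr10 at 48.8 TPM to Uqcrb at 902 TPM. Among the common subunits of complex IV it ran from Cox5a at 8.08 TPM to Cox5b at 373 TPM. Between single genes, complex V had the widest range, from Atp5g1 at 4.52 TPM to Atp5b at 785 TPM, which is 174-fold. Atp5g1, with 4912 exon bases, is 1 of 3 genes for the same c-ring protein, so its level is not that of a subunit. The lowest complex V gene outside the c-ring was Atp5e at 18.4 TPM, named after its value was seen. The lengths were those of all annotated exons of a gene together, so that a gene with long rare exons, such as Ndufb2 with 5628 bases, is placed too low.

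**Figure D5:**
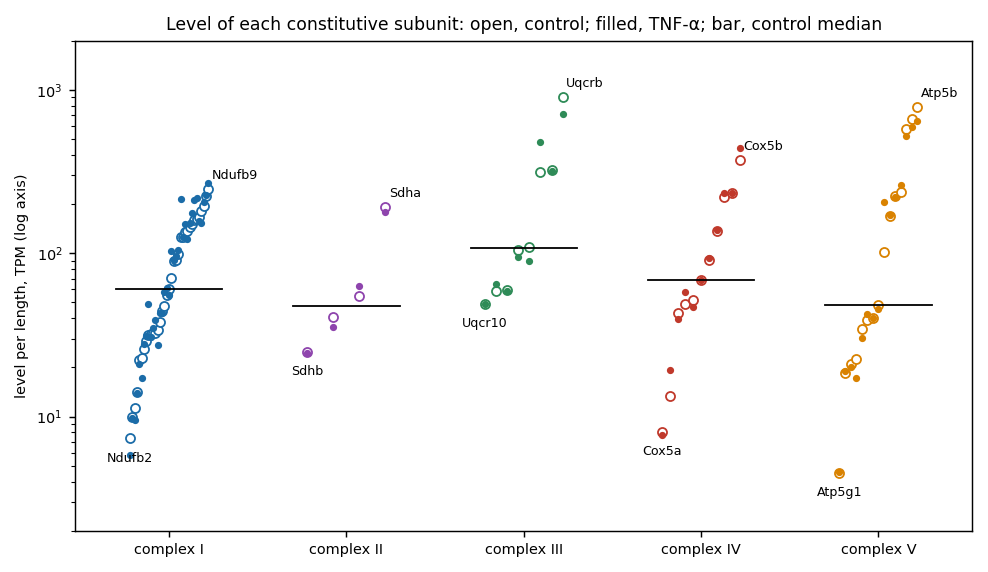
Level per exon length in TPM (log axis) of each subunit by complex, ordered by control level, with open circles for the control library and filled circles for the TNF-α library, and a bar at the control median; tissue isoforms are left out. The spread within each complex is far wider than the distance between the open and filled circle of a gene.

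Copies and overlapping genes limit the values of some members. Of 83 members with a transcript sequence, 39 shared no stretch of 50 bases with another gene, 21 shared more than 10% of such stretches, and 25 members had an exon base in common with another gene. Atp5k shared 0.778% of its stretches and no exon base, and Uqcrh, Ndufa1, Ndufa8 and Cox7a2 shared none of either. Ndufa12 shared 17.2% with Gm15920, which had 18 and 56 counts, far fewer than Ndufa12. Ndufb6 shared 34.1% of its stretches with Smim27, a transcript name that had no counts or was absent from the count table. It shared 39.0% of its exon bases with the opposite-strand gene Toporsos, at 54 and 80 counts, so the Ndufb6 value is uncertain. Whether Smim27 and Toporsos mark the same overlap was not tested. The 47 members compared that had at most 10% of stretches shared and no shared exon base centred on a log2 ratio of 0.03 (median). Past the 5-to-4 limit, 6 of them were higher and 4 lower, against 24.5% and 23.4% of all genes compared.

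The subunits encoded by mitochondrial DNA complete complexes I, III, IV and V. Several of these genes share most of their sequence with nuclear copies. For mt-Atp6, mt-Co2 and mt-Co3, subunits of complexes V and IV, the counts stood on the copies, with 12 and 14, 0 and 6, and 12 and 37 counts on the genes themselves against 180699 and 186653, 39638 and 56474, and 41848 and 58070 counts on the copies. The 13 genes took 1.113% of all counts without TNF-α and 1.159% with it, and 1.702% and 1.722% when the copies of these 3 were added. Of the 11 genes compared, 3 were higher past the 5-to-4 limit and none was lower, against 24.5% and 23.4% of all genes compared, with a median of 0.06. The higher genes were mt-Co3, which shares 99.9% of its stretches of 50 bases with a copy, mt-Nd3 (452 and 869 counts, a log2 ratio of 0.68), which shares 98.0%, and mt-Nd2. The lowest was mt-Nd4l of complex I (19377 and 21268 counts, -0.13), which shares 98.8%. Of the 5 well counted genes with few or no shared stretches, mt-Nd1 was at -0.12 and mt-Nd2 at 0.37, both complex I, with a median of 0.18 over the 5. mt-Cytb, the subunit of complex III that holds its hemes b, had 81110 and 118893 counts and a log2 ratio of 0.29.

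Genes that work with the complexes were counted in the same way. The list of 9 genes outside the name rule held electron carriers, further subunits and an inhibitor of the ATP synthase. It had a median of -0.02 and none past the 5-to-4 limit. Its values ran from Etfb at -0.21 to Etfdh at 0.20, both parts of the route from fatty acid oxidation to coenzyme Q. Of 48 assembly factors, 7 were higher and 3 lower past the 5-to-4 limit, against 24.5% and 23.4% of all genes compared. Their median was 0.05. Among them Pet100, a complex IV assembly factor, had 2380 and 3912 counts and a log2 ratio of 0.46 (0.38 to 0.53), and Cox19, a copper-handling factor, had 260 and 227 counts and -0.45 (-0.72 to -0.19). Coenzyme Q synthesis had a median of -0.20 with 3 of 13 genes above 0, and 11 of the 13 lay within the limit. Past it, 2 of the 13 were lower and none higher, a smaller share than the 23.4% of all genes, and Coq8a, a kinase-like regulator of the pathway, had 847 and 706 counts and a log2 ratio of -0.52 (-0.67 to -0.38). Of 14 citric acid cycle genes, 1 was higher and 1 lower, against the same 24.5% and 23.4% of all genes. Their median was -0.07. The lower gene was Ogdh, a subunit of the 2-oxoglutarate dehydrogenase, with 5161 and 3930 counts and a log2 ratio of -0.65 (-0.71 to -0.59), and the higher was Suclg2, a succinyl-CoA ligase subunit, with 1501 and 2347 counts and 0.38 (0.29 to 0.48).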

How the data were processed

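RNA of both cultures was sequenced after a SMARTER mRNA-seq library preparation. The authors deposited raw read counts per gene, with the position and exon length of each gene, not normalized, on the genome build that the submitters' processing notes name (GRCm38, mm10). The aligner, the counter, its strand setting and the annotation were not given in the sources used here. The series is titled a microarray, but its values were whole counts. The OXPHOS genes, related lists and markers were chosen with earlier results of these data known.

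From the deposited counts, log2 ratios were computed on CPM scaled by TMM (edgeR 4.0.16, R 4.3.3), with a prior count of 2 and a minimum of 10 summed counts, in Python 3.11.15. TPM used the deposited exon length. With 1 library per condition no test was run. Ratios past the 5-to-4 limit and 2-fold were counted and set beside all genes compared. The steps were run on simulated Poisson counts with the scaling of the real libraries. Such counts are independent, so that run could not check the intervals for counts that are not. Named were, per complex and list, the highest and lowest gene with at least 200 counts and, per complex, the most abundant gene, every OXPHOS gene past the 5-to-4 limit with at least 200 counts, isoform pairs and core subunits, of which 1 is not reported here. Other genes named (Ndufs8, Ndufb2, Ndufa6, Ndufa7, Uqcr10, Cox7a2l, Atp5h, Atp5j, Atp5j2, Atp5l, Atp5s, Atp5sl, mt-Atp6, mt-Co2, mt-Co3, mt-Cytb, mt-Nd1, mt-Nd2, and overlapping genes or copies) were chosen after their values were seen. Shared stretches were counted in GENCODE M21 transcripts, and promoters came from RefSeq. Alternatives were other scalings (total counts, DESeq2 1.42.0 size factors, upper quartile), filters, prior counts, halved counts, a GC content and length correction, and removal of mitochondrial and ribosomal RNA genes.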

Additional observations from a re-analysis of the deposited data

How the results depend on the processing

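No paired analysis was possible because there was 1 control and 1 TNF-α library, and for the same reason no replicate could be left out. The same 9 OXPHOS genes higher and 6 lower past the 5-to-4 limit were found with upper quartile scaling, total counts, DESeq2 size factors, a prior count of 0.5 or 5, and without mitochondrial and ribosomal RNA genes. Halved counts also gave the same genes. Library sizes were halved with them, so only the weight of the added counts changed. This setting could not check whether counts were independent, and the intervals were not recomputed. With no filter Ndufs8 was added to the higher genes (10), and with a minimum of 1 CPM in a library Cox8b was no longer compared (5 lower). A correction for GC content and exon length, available for 81 of the 82 genes, gave 8 higher (without Ndufs6) and 8 lower genes, of which 4 were shared with the 6 above. Atp5d and Ndufs7 were no longer past the 5-to-4 limit lower and Ndufa6, Ndufa7, Uqcrb and Uqcrfs1 were, and 27 of the 81 genes moved outside their counting interval. It also moved the median of complex IV from 0.04 to -0.091, and Atp5k to 0.966, below 2-fold. With a minimum of 1 CPM, the median of mitochondrial carriers and channels was 0.11. Outside mitochondrial and ribosomal RNA genes, the OXPHOS genes took 0.669% of the counts in the control and 0.677% in the TNF-α library. The restriction to the 47 genes without copies or overlaps, and the sum with the copies of mitochondrial genes, were chosen after seeing the data. No gene past the limit changed sign under any of these settings. The OXPHOS genes have short exons (median 1490 bases against 3159 for all genes compared). With 1 library each, the response to TNF-α and a chance difference between these cultures cannot be told apart.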

Other observations

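Regulators of mitochondrial gene expression lay close to the control. Of 19 such genes, 1 was past the 5-to-4 limit lower and none higher, against 23.4% and 24.5% of all genes compared. Their median log2 ratio was -0.02, while the log2 ratio of their summed level was 0.00. Ppargc1b, a coactivator of nuclear genes of the mitochondrion, had 570 counts in the control and 544 in the TNF-α library, a log2 ratio of -0.33 (95% counting interval -0.50 to -0.16). Yy1, whose motif stood in 16% of the OXPHOS promoters, had 2728 and 3771 counts, a log2 ratio of 0.21 (0.14 to 0.28). Nrf1 and Gabpa, for the NRF1 and ETS motifs, were at 0.17 (1419 and 1911 counts) and 0.14 (4483 and 5929 counts). Esrra, an estrogen-related receptor gene, went the other way, at -0.22 (725 and 744 counts). Nrf1, Gabpa and Esrra were named after their values were seen. Gabpa overlaps Atp5j on the opposite strand, so reads of the pair may have been mixed.

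Carriers and channels that move nucleotides, phosphate and protons across the mitochondrial membranes were counted in the same way. Of the 9 compared, 3 were past the 5-to-4 limit lower and none higher, against 23.4% and 24.5% of all genes compared, with a median of 0.01 and a log2 ratio of their summed level of -0.07. The lower genes were the uncoupling proteins Ucp1, Ucp2 and Ucp3. Ucp2, the form found in many tissues, had 8856 counts in the control and 6932 in the TNF-α library, a log2 ratio of -0.61 (-0.66 to -0.57). Ucp1 had 8 and 4 counts, too few to read a difference. Ucp3 had 38 and 27 counts and a log2 ratio of -0.71 (-1.52 to -0.003), an interval whose upper end was close to the control level. Ucp2 is thus the 1 gene of the list with an interval wholly past the limit. The highest gene was Slc25a5, an ADP/ATP carrier, with 1738 and 2508 counts and a log2 ratio of 0.27 (0.18 to 0.36).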
